A study of Mus musculus with 9 samples.

Results

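The odorant receptor genes that lie next to the Ms4a cluster on mouse chromosome 19 were taken as all genes whose symbol runs from Olfr1417 to Olfr1505 by its number, with or without the suffix -ps that symbols of pseudogenes carry. The rule used only gene symbols and found 87 genes among the 55291 genes of the table. Of these, 59 had at least 10 counts summed over the 9 mice and were tested, among 23225 tested genes. The table held 1321 other odorant receptor genes, 1050 of them tested.

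Gene expression had been measured by poly-A RNA sequencing of the main olfactory epithelium, the tissue lining the nasal cavity that holds the olfactory sensory neurons. The mice were C57BL/6 and 8 to 12 weeks old. There were 3 wild-type mice, 3 Ms4a cluster knockout mice in which CRISPR/Cas9 had removed the whole Ms4a family, and 3 Ms4a6c knockout mice in which homologous recombination had removed that single gene. The study used littermate wild-type animals as controls, and the same 3 wild-type mice served here for both knockouts.

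Odorant receptors are G protein-coupled receptors, and each mature olfactory sensory neuron expresses a single receptor gene from a single allele. The genes stand in clusters along the chromosomes, and the level of a receptor in whole tissue follows both the number of neurons that chose it and the RNA in each of them. Choice depends on enhancers acting within and between chromosomes, on the transcription factors Lhx2 and Ebf and on the adaptor Ldb1, and a feedback signal through Adcy3 and the unfolded protein response then keeps the choice stable. MS4A proteins are a separate family of membrane proteins, many of them found in the necklace olfactory neurons. The study reports MS4A1 outside the necklace, in another subset of sensory neurons of the main olfactory epithelium. The comparison asked whether removal of the adjoining Ms4a cluster altered the receptor genes beside it. In whole tissue, fewer neurons with a receptor and less receptor RNA per neuron cannot be told apart.

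The annotated Ms4a genes spanned chr19:10962293-11640851 (GRCm38), and the 87 receptor genes spanned chr19:11826803-13921866. The first receptor, Olfr1417, began 186 kb past the last Ms4a gene and the last began 2273 kb past it. Splitting the receptors at gaps of more than 100 kb gave 4 blocks. Olfr1417 to Olfr1420 formed the block nearest to the deletion, with 4 genes that were all tested. Olfr1421-ps1 to Olfr1441 formed a block of 19, with 13 tested and 4 other odorant receptors interleaved (Olfr76, Olfr235, Olfr262 and Olfr1555-ps1). Olfr1442 and Olfr1443 stood alone, and Olfr1444 to Olfr1505 formed the farthest block of 62 genes with 40 tested.

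Many of these genes are recent duplicates whose transcripts are alike, which bears on how reads were divided among them. Of the 59 tested receptors, 30 had another tested receptor with a transcript at least 90% identical over at least 300 bases, and for 24 of them all such partners were among the 59. The coding sequences of Olfr1417 and Olfr1418, the pair nearest to the deletion, were 97.2% identical over 945 bases. A stretch of 150 coding bases of each is shown because it holds 15 of their differences, in capitals. The stretches lie at chr19:11828084-11828233 and chr19:11855011-11855160, both on the minus strand and within the protein-coding part.
Olfr1417: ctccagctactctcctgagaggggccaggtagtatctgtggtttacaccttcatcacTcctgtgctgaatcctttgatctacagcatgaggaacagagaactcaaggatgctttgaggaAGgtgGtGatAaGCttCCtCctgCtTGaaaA
Olfr1418: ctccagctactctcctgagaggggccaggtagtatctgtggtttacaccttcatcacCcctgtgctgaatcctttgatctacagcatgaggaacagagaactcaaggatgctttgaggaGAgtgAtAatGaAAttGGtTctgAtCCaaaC
Their expected counts were fractional in each of the 9 mice, such as 131.19 and 76.81 in wild-type mouse 1, yet added up to a whole number in all 9 (within 0.015). Some reads were thus divided between the pair by estimation, and their counts are uncertain one by one.

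Olfr1436 and Olfr1437 are shown for the opposite outcome. Their coding sequences were 96.3% identical over 936 bases, yet Olfr1437 had 1152 counts over the 9 mice and Olfr1436 had 4, whole numbers in all 9 mice. The stretches lie at chr19:12298569-12298718 and chr19:12322273-12322422, both on the minus strand, and 12 differences are in capitals.
Olfr1436: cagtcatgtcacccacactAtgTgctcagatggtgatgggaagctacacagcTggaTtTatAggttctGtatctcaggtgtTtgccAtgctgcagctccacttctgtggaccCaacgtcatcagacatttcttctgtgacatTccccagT
Olfr1437: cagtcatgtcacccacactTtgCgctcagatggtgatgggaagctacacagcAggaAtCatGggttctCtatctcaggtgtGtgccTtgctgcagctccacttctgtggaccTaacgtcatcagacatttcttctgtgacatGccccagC

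The libraries held between 13954591 and 21987174 expected counts. Mature sensory neuron markers were abundant in every mouse, with Omp, a defining marker of these cells, between 4018 and 5215 CPM (counts of a gene relative to its library's TMM-scaled size). All 21 Ms4a symbols had 0 counts in each Ms4a cluster knockout mouse, whereas 14 had counts in wild type. Ms4a6c was counted 54.0, 90.3 and 81.5 times in wild type and 0, 2.35 and 2 times in the Ms4a6c knockout mice. Wild-type mouse 1 and cluster knockout mouse 2 stood apart from the rest through nasal gland transcripts. The secreted gland protein gene Bpifb9a reached 53548 and 49864 CPM in them and between 80.6 and 2010 CPM in the other mice. Obp1a, Obp2a, Obp2b, Lcn11 and Bpifb9b were likewise highest in these 2 mice, with Bpifb9b also at 30616 CPM in Ms4a6c knockout mouse 2. The gland gene Muc5b did not follow, at 366.2 CPM in wild-type mouse 1 and 283.7 CPM in cluster knockout mouse 2. The region's sum and share, and some values of single receptors, are also given without wild-type mouse 1 or cluster knockout mouse 2. The Xist coefficients below were not fitted without them.

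Detection differed with the suffix. Of the 60 genes without the suffix, 56 were tested, and the 4 that were not (Olfr1436, Olfr1445, Olfr1453 and Olfr1475) had between 1 and 4.05 counts in all. Of the 27 genes with the suffix, 3 were tested, namely Olfr1438-ps1, Olfr1468-ps1 and Olfr1493-ps1, and 20 had no count in any mouse. GENCODE annotates Olfr1438-ps1 and Olfr1493-ps1 as protein-coding, 2 of the 27 with that annotation, and Olfr1468-ps1 as a polymorphic pseudogene. A count of 0 in 1 library, taken alone, allows up to 3 counts there, or from 0.123 to 0.299 CPM, and covers counting error only. A total of 0 over all 9 mice sets a tighter bound, which was not computed.

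The tested receptors covered a wide range of levels. Per kilobase of annotated transcript, their mean over the 9 mice differed by a factor of 322 from the lowest to the highest, with a median of 0.959 CPM per kb beside 1.08 CPM per kb for the other 1050 tested receptors. The 5 receptors with most counts held 32.3% of the region's receptor counts and the first 10 held 51.8%. Within wild type, the median coefficient of variation over the 3 mice was 18.7% for these receptors and 18.7% for the other receptors.

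Olfr1463, in the farthest block, had the highest level per kilobase. It stood at 8.84, 10.8 and 8.72 CPM per kb in wild type, at 9.41, 8.83 and 8.23 in the cluster knockout and at 10.4, 7.56 and 9.96 in the Ms4a6c knockout. The 3 genotypes overlapped. Olfr1426, Olfr1428 and Olfr1427, neighbours in the second block, came next, with means over all mice of 7.04 ± 0.795, 6.15 ± 0.747 and 4.62 ± 0.701 CPM per kb (SD, n = 9). Olfr1420, the only plus-strand gene of the first block, followed at 3.92 ± 0.466 CPM per kb (SD, n = 9). The next in this order, Olfr1443 (3.81 ± 0.485 CPM per kb), lay within the spread of Olfr1420. Olfr1440, known to respond to the musk odorant muscone, had a mean of 1.64 ± 0.258 CPM per kb (SD, n = 9).

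**Figure D1:**
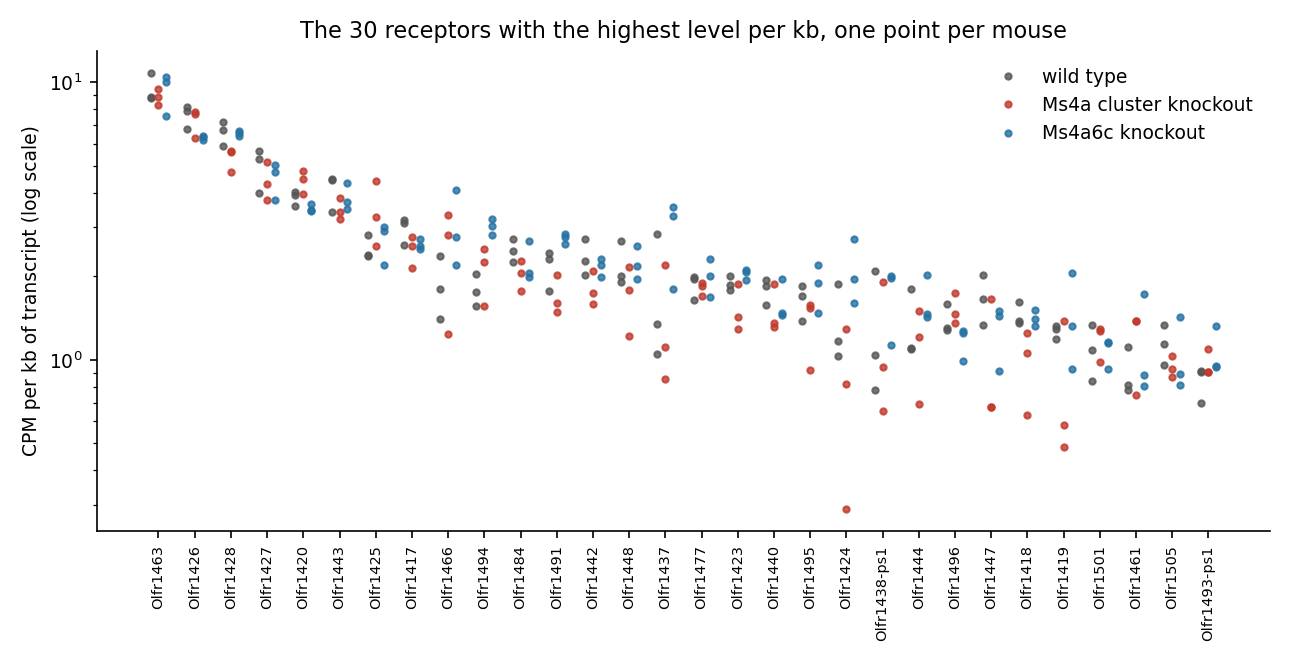
Level of the 30 receptors with the highest mean, in CPM per kb of annotated transcript on a log axis, with 1 point per mouse and the genotypes in colour. Olfr1463 was highest at a mean of 9.19 CPM per kb, and Olfr1463, Olfr1427 and Olfr1440 show the 3 genotypes overlapping.

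Deletion of the Ms4a cluster was followed by no receptor change that passed correction. Compared with wild type, 0 of 59 receptors passed a false discovery rate of 0.05 by edgeR, where 0.0258% of all tested genes did. DESeq2 also called 0, of the 56 receptors to which it gave an adjusted p. At an unadjusted p under 0.05, 0 receptors were higher and 3 were lower, against 2.25% and 2.68% of all genes, and DESeq2 likewise had 3. Among the other 1050 odorant receptors 18 were higher and 80 were lower at that level, which is 1.71% and 7.62%. The median log2 fold change was -0.10 over the 59 receptors, -0.08 over the other receptors and 0.01 over all tested genes. Individually, 27 receptors lay above 0 and 32 below. The 95% interval of the fold change stayed within 2-fold in either direction for 31 of the 59. The others included receptors with few counts and receptors whose mice differed widely, such as Olfr1437, with 1152 counts and an interval from -1.29 to 0.68 on the log2 scale.

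The receptors nearest to the deletion were examined one by one. Olfr1417 stood at 9.31, 11.2 and 11.4 CPM in wild type and at 9.22, 7.68 and 9.92 CPM in the cluster knockout, and the groups overlapped. Its log2 fold change was -0.24 ± 0.13 (SE, edgeR adjusted p = 0.968). Olfr1418 stood at 5.47, 6.55 and 5.58 CPM in wild type and at 5.06, 4.29 and 2.56 CPM in the cluster knockout. All 3 knockout mice lay below the wild-type mice, with a log2 fold change of -0.57 ± 0.23 (SE, edgeR adjusted p = 0.968). Without cluster knockout mouse 3 it was -0.32. Because some reads were divided by estimation, the counts of the pair were also summed.

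Summed, Olfr1417 and Olfr1418 stood at 14.8, 17.7 and 17.0 CPM in wild type, at 14.3, 12.0 and 12.5 CPM in the cluster knockout and at 15.0, 14.5 and 15.4 CPM in the Ms4a6c knockout. The 3 cluster knockout mice were again the lowest of the 9, although the nearest wild-type mouse was only slightly above them. The log2 fold change of the sum against wild type was -0.35 (edgeR unadjusted p = 0.0064, adjusted p = 0.966). The smallest unadjusted edgeR p of a single receptor of the region in this comparison was 0.0157, for Olfr1428. The sum was chosen after the data were seen.

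Olfr1419 stood at 3.98, 3.66 and 4.10 CPM in wild type and at 1.80, 1.5 and 4.26 CPM in the cluster knockout. The first and second knockout mice were below all wild-type mice and the third was above them. Olfr1420, next to it on the other strand, went the other way, with 12.0, 11.8 and 10.7 CPM in wild type and 14.4, 13.5 and 11.8 CPM in the cluster knockout. Its log2 fold change was 0.20 ± 0.10 (SE, edgeR adjusted p = 0.968), and 0.13 without cluster knockout mouse 1. Olfr1423, next in distance at 391 kb, stood at 9.95, 11.2 and 10.3 CPM in wild type and 7.97, 7.18 and 10.4 CPM in the cluster knockout, with overlap. Of the 5 nearest receptors, Olfr1417, Olfr1418, Olfr1419 and Olfr1423 had log2 fold changes of -0.24, -0.57, -0.60 and -0.29, and only Olfr1420 lay above 0.

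The 2 other receptors below an unadjusted p of 0.05 lay farther away. Olfr1428, 467 kb from the deletion, stood at 12.5, 15.3 and 14.2 CPM in wild type and at 12.0, 11.9 and 10.1 CPM in the cluster knockout. The groups did not overlap, and the log2 fold change was -0.31 ± 0.11 (SE, edgeR adjusted p = 0.968). Olfr1442, 1030 kb away, stood at 7.25, 8.15 and 9.78 CPM in wild type and at 7.51, 5.68 and 6.26 CPM in the cluster knockout, with overlap. Its log2 fold change was -0.37 ± 0.16 (SE, edgeR adjusted p = 0.968), and -0.24 without wild-type mouse 3. Among receptors above wild type, those with the smallest p were Olfr1425, Olfr1420 and Olfr1490, with log2 fold changes of 0.42, 0.20 and 0.45. Olfr1425 was at 0.21 without cluster knockout mouse 2, and Olfr1490 at 0.27 without cluster knockout mouse 1. Summed with its near-identical neighbours Olfr1424 and Olfr1426, Olfr1425 was at -0.0064.

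**Figure D2:**
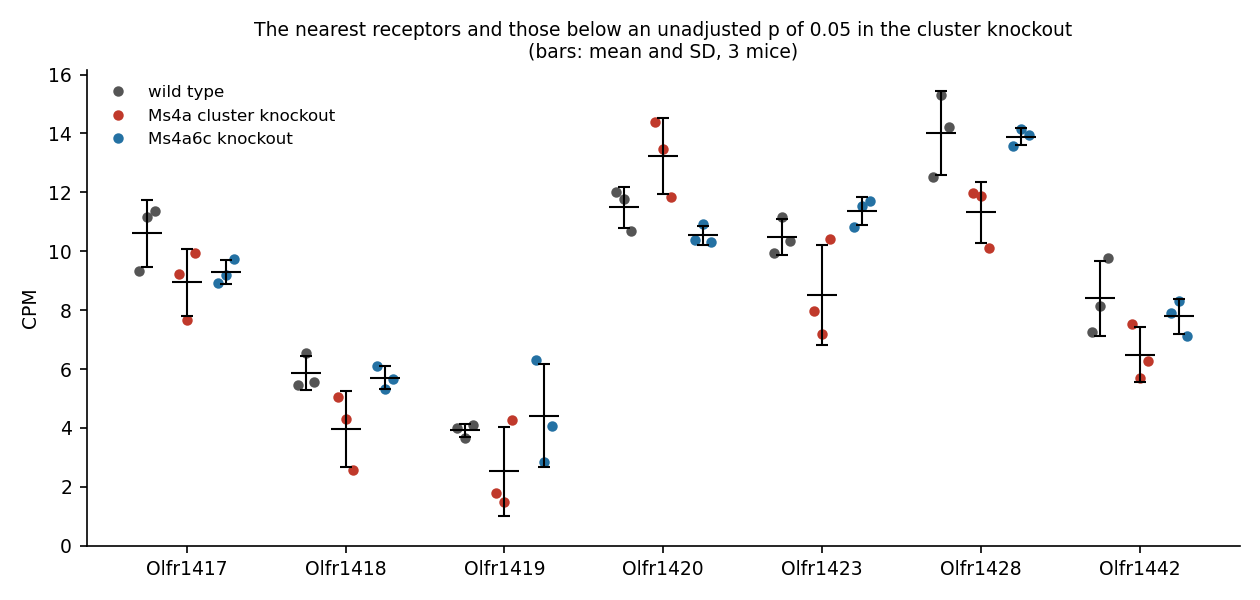
CPM of the 5 tested receptors nearest to the deletion and of Olfr1428 and Olfr1442, with 1 point per mouse and bars for the mean and SD of 3 mice per genotype. Olfr1418 and Olfr1428 were lower in each cluster knockout mouse than in each wild-type mouse, and Olfr1420 had its highest values in the cluster knockout.

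Change was then set against distance. The median log2 fold change in the cluster knockout was -0.41 over the 4 receptors of the first block, -0.17 over the 13 of the second, -0.30 over the 2 of the third and 0.04 over the 40 of the farthest. Across the 59 receptors, distance and log2 fold change had Pearson's r = 0.20 and Spearman's rho = 0.25, where the points share libraries and some neighbours share reads. The Ms4a6c knockout, which keeps the rest of the Ms4a cluster, gave medians of -0.08, 0.09, -0.10 and 0.25 in the same order, with r = 0.21 and rho = 0.18. The knockouts share their wild-type mice, so these values are not independent of each other, and the difference between them was not tested. Without wild-type mouse 2 the rho for the cluster knockout was 0.12, and without wild-type mouse 1 it was 0.29.

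**Figure D3:**
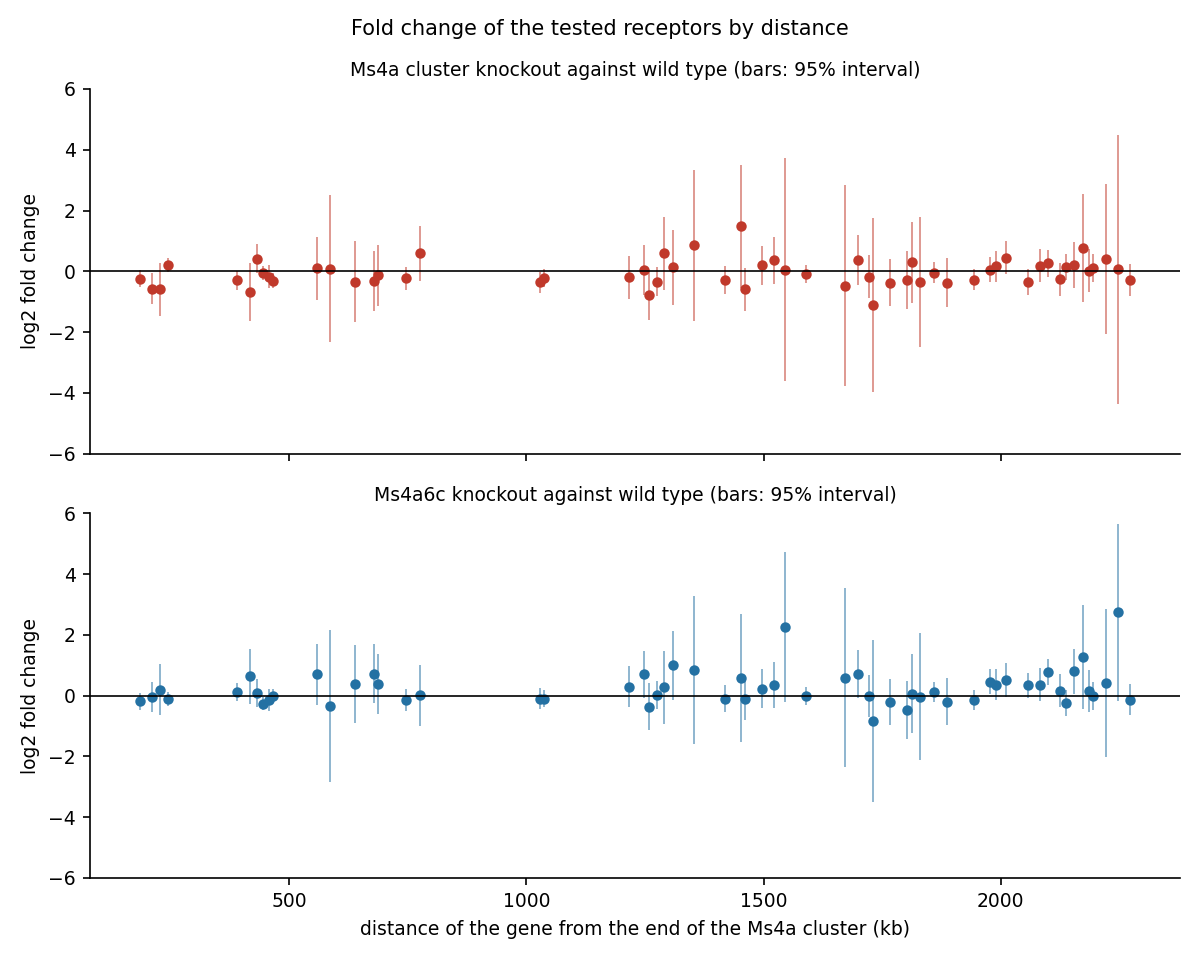
Log2 fold change against wild type of the 59 tested receptors, with 95% intervals, by distance in kb from the end of the Ms4a cluster, for the cluster knockout (top) and the Ms4a6c knockout (bottom). The intervals of all but 3 receptors in the cluster knockout crossed 0, and the widest belong to receptors with few counts.

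The receptors were also summed in each mouse. Their sum was 274.0, 283.9 and 267.8 CPM in wild type, 254.1, 243.0 and 258.1 CPM in the cluster knockout and 282.7, 287.9 and 289.8 CPM in the Ms4a6c knockout. The cluster knockout mice were all below the wild-type mice on this scale, with means of 251.7 ± 7.82 and 275.2 ± 8.09 CPM (SD, n = 3). The other odorant receptors moved in the same direction, from 6503 ± 279 to 6013 ± 469 CPM (SD, n = 3), with overlap. With plain library sizes in place of TMM the difference in the region's sum was -20.8 CPM, and the groups overlapped, at 192.2 to 311.9 CPM in wild type and 171.1 to 285.9 CPM in the cluster knockout.

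Expressed as a share of all odorant receptor counts, the region's receptors made up 4.14, 4.00 and 4.06% in wild type and 3.79, 4.23 and 4.08% in the cluster knockout. The means were 4.06 ± 0.0736% and 4.03 ± 0.220% (SD, n = 3), and the groups overlapped. In the Ms4a6c knockout the share was 4.29, 4.14 and 4.29%, at or above the highest wild-type mouse. Scaled to the other odorant receptors in place of the whole library, the median log2 fold change in the cluster knockout was 0.01. Without cluster knockout mouse 2 the difference in share from wild type was -0.129 percentage points, and without wild-type mouse 1 it was 0.00737. The sum in CPM remained lower in the cluster knockout without either mouse, by values between -27.2 and -19.1 CPM over all left-out mice.

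**Figure D4:**
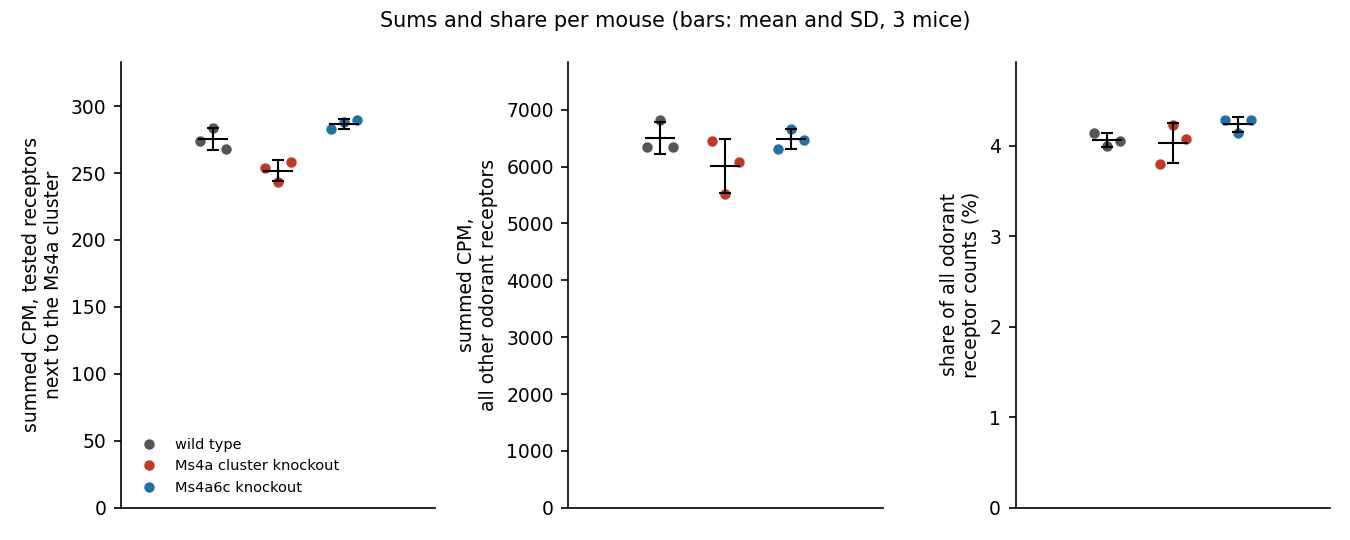
Summed CPM of the tested receptors next to the Ms4a cluster (left), summed CPM of all other odorant receptors (middle) and share of the region in all odorant receptor counts (right), with 1 point per mouse and bars for the mean and SD of 3 mice. The cluster knockout was lowest in the left panel, while its share of 4.03% overlapped the 4.06% of wild type.

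In the Ms4a6c knockout, 0 of 59 receptors passed an adjusted p of 0.05 in edgeR, against 0.435% of all genes and 3 of the other 1050 receptors. DESeq2 called 0 of the 46 receptors to which it gave an adjusted p, the smallest being 0.0551. At an unadjusted p under 0.05, 3 receptors were higher and 1 was lower, against 5.34% and 5.13% of all genes, and DESeq2 had 2. The median log2 fold change was 0.11, beside 0.08 over the other receptors.

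Olfr1494, in the farthest block, stood out with 3.70, 3.27 and 4.27 CPM in wild type and 6.76, 6.39 and 5.93 CPM in the Ms4a6c knockout. The cluster knockout mice, at 4.71, 3.29 and 5.26 CPM, lay among or above the wild-type mice and below the Ms4a6c knockout mice. The log2 fold change against wild type was 0.76 ± 0.19 (SE, edgeR adjusted p = 0.168), and with DESeq2 the adjusted p was 0.0551. Its transcript is 90.3% identical to that of the neighbouring Olfr1491 over 610 bases, and the pair summed gave 7.89, 6.32 and 8.25 CPM in wild type against 11.3, 11.3 and 10.7 CPM in the Ms4a6c knockout. The groups did not overlap, with a log2 fold change of 0.57 (edgeR adjusted p = 0.137). Olfr1487 and Olfr1497 were the other receptors above wild type at an unadjusted p under 0.05. Their log2 fold changes were 0.45 ± 0.18 and 0.81 ± 0.33 (SE, edgeR adjusted p = 0.423 and 0.437). The transcript of Olfr1487 is 97.0% identical to that of Olfr1480, and 93.9% and 94.0% identical to those of Olfr1477 and Olfr1484. Its expected counts were fractional in the Ms4a6c knockout mice, at 87.88, 62.61 and 64.3, so its value alone is uncertain. Olfr1477, Olfr1480 and Olfr1484 had log2 fold changes of 0.10, -0.20 and -0.14 there. Their sum with Olfr1487 is not given here.

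Olfr1426, the second highest receptor of the region, was the 1 below wild type at an unadjusted edgeR p under 0.05. It stood at 24.1, 24.7 and 20.7 CPM in wild type and at 19.6, 18.9 and 19.4 CPM in the Ms4a6c knockout, a log2 fold change of -0.26 ± 0.10 (SE, edgeR adjusted p = 0.396). Summed with its near-identical neighbours Olfr1424 and Olfr1425, it gave 31.0 ± 2.12 CPM in wild type and 28.8 ± 1.10 CPM in the Ms4a6c knockout (SD, n = 3), where the groups overlapped. Olfr1417 and Olfr1496 had the next smallest p below wild type, with log2 fold changes of -0.20 and -0.25, the latter at -0.14 without wild-type mouse 3 and likewise without Ms4a6c knockout mouse 1.

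Between the knockouts, 0 of 59 receptors passed an adjusted p of 0.05 in edgeR or in DESeq2, against 0.443% of all genes in edgeR. At an unadjusted p under 0.05, 1 receptor was higher in the cluster knockout and 7 were lower, which is 1.69% and 11.9%, against 4.68% and 4.7% of all genes, and DESeq2 had 8. The other odorant receptors showed 3.81% higher and 13.0% lower at that level, with medians of -0.18 over the region and -0.17 over the others. Olfr1491 had the smallest p, with 2.55, 3.49 and 2.76 CPM in the cluster knockout and 4.51, 4.90 and 4.78 CPM in the Ms4a6c knockout (log2 fold change -0.70 ± 0.19 SE, edgeR adjusted p = 0.245). Olfr1424 and Olfr1423 followed among the lower ones at -1.31 ± 0.42 and -0.40 ± 0.14 (SE, edgeR adjusted p = 0.351 and 0.4). Summed with its near-identical neighbours Olfr1425 and Olfr1426, Olfr1424 was at 0.10 (edgeR adjusted p = 0.774). The expected counts of Olfr1424 were fractional in all 9 mice, and its value alone is uncertain. Olfr1420 was the 1 higher receptor at an unadjusted p under 0.05, with 0.33 ± 0.10 (SE, edgeR adjusted p = 0.349). By p, Olfr1496 and Olfr1426 followed it with 0.38 and 0.19.

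Olfr1437 and Olfr1438-ps1, neighbours on the minus strand, varied widely among mice of 1 genotype. Olfr1437 stood at 10.7, 3.94 and 5.06 CPM in wild type, at 3.21, 4.19 and 8.22 CPM in the cluster knockout and at 6.76, 12.3 and 13.3 CPM in the Ms4a6c knockout. Olfr1438-ps1 stood at 9.95, 4.94 and 3.70 CPM, at 3.11, 4.49 and 9.07 CPM and at 5.37, 9.55 and 9.37 CPM in the same order. The same mice were high for both genes in every genotype.

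These were the mice with little Xist, the RNA that coats the inactive X chromosome of female cells. Xist was at most 2.61 CPM in 4 mice, namely 1 wild-type, 1 cluster knockout and 2 Ms4a6c knockout mice, and at least 246.7 CPM in the other 5. The sex of the mice was not given in the sources used here. With log2(Xist CPM + 1) added to the edgeR model, a term chosen after these values were seen, Olfr1437 had a coefficient of -0.15 ± 0.0189 per log2 unit of Xist (SE, edgeR adjusted p = 0.0427), the smallest p of all odorant receptors. For Olfr1438-ps1 it was -0.15 ± 0.0222 (SE, edgeR adjusted p = 0.103). The only wild-type mouse with little Xist was mouse 1, which was also high in Bpifb9a, and neither coefficient was fitted without it. At an unadjusted p under 0.05 the term passed for 8 of the 59 receptors (13.6%), for 10.7% of the other receptors and for 5.59% of all genes. Olfr1437 was below an unadjusted p of 0.05 between the knockouts (log2 fold change -1.03 ± 0.44 SE, edgeR adjusted p = 0.505), and with the Xist term its log2 fold change was -0.72 (adjusted p = 0.196).

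**Figure D5:**
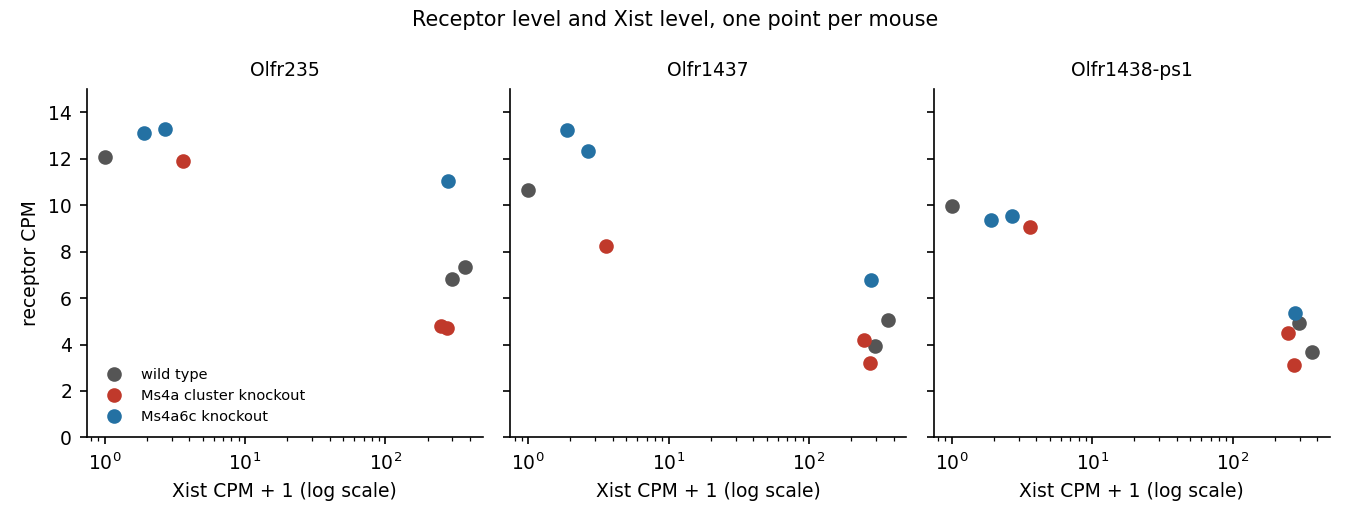
CPM of Olfr235, Olfr1437 and Olfr1438-ps1 against Xist CPM + 1 on a log axis, with 1 point per mouse and the genotypes in colour. Olfr1437 lay between 8.22 and 13.3 CPM in the 4 mice with little Xist and between 3.21 and 6.76 CPM in the other 5.

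Over 9 mice, the receptors whose log2 levels were most like that of Olfr1437, out of 1108 others tested, were Olfr1410 with r = 0.96 and then Olfr235, Olfr518 and Olfr1438-ps1 with r = 0.94, 0.93 and 0.93. Olfr235 is interleaved with the region's receptors, 1 of the 4 that the symbol rule leaves out. The promoters of Olfr1437 and of Olfr1434, a neighbour whose transcript is 90.01% identical over 931 bases but which had 154.1 counts in all, are shown with the homeodomain letters TAATTA and TAATGA, searched on both strands, in capitals. Each runs from 250 bases before to 50 bases after the RefSeq start in GRCm38.p6. They lie at chr19:12325017-12325316 on the minus strand and chr19:12279604-12279903 on the plus strand.
Olfr1437: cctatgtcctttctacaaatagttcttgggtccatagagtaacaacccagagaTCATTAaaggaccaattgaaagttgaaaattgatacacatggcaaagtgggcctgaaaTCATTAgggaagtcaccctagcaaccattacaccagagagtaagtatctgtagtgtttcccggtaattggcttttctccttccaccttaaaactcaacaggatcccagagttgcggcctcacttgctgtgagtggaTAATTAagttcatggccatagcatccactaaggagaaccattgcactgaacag
Olfr1434: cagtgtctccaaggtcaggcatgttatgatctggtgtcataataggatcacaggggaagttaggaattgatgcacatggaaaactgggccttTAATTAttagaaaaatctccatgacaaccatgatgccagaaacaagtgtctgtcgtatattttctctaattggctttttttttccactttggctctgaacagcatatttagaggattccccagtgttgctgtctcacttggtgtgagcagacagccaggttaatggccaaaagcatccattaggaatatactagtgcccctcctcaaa
Homeodomain factors such as Lhx2 are known to bind such letters in receptor promoters. Of 87 receptors, 56 had a RefSeq start, but for 8 only was it within 50 bases of the outermost GENCODE start. Only 4 of these 8 were tested. Olfr1436, Olfr1445, Olfr1453, Olfr1475 and Olfr1502 among them had annotated transcripts of 924 to 1001 bases, near the 945 coding bases of Olfr1436. Their annotated starts may thus be those of the coding sequence, and whether these windows are promoters was not tested. TAATTA occurred in 3 of these 8 windows (37.5%), in 23.2% of the 56, in 18.6% of 948 receptor promoters and in 5.3% of 32851 promoters of all genes. TAATGA occurred in 25%, 33.9%, 28.8% and 9.8%. The letters CCCNNGGG, the core of sites bound by Ebf factors, occurred in 0 of the 8 and in 1.8% of the 56, beside 3.1% of receptor promoters and 13.7% of all.

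The genes that act in receptor choice and transport were looked at as a list of 27, all tested. Against wild type, 0 rose and 0 fell at an adjusted p of 0.05 in edgeR in either knockout, and 2 had an unadjusted p under 0.05 in each, Ddit3 and Nfia, where 4.93% and 10.5% of all tested genes did. Ddit3 is a transcription factor of the unfolded protein response. Its log2 fold changes in the cluster and Ms4a6c knockouts were 0.31 ± 0.12 and 0.33 ± 0.12 (SE, edgeR adjusted p = 0.968 and 0.327). Nfia, a transcription factor active in receptor zones, had -0.34 ± 0.14 and -0.35 ± 0.14 (SE, edgeR adjusted p = 0.968 and 0.402). Both knockouts were set against the same wild-type mice, so these values are not independent of each other. Lhx2 stood between 148.9 and 207.0 CPM over the 9 mice, and Rtp1, which carries receptors to the membrane, between 498.1 and 632.1 CPM.

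The mature sensory neuron markers summed to between 13669 and 15618 CPM in wild type, between 12356 and 15532 CPM in the cluster knockout and between 14876 and 15545 CPM in the Ms4a6c knockout. Of these 13 genes, 0 changed in the cluster knockout, and Gng13, a G protein subunit of the transduction pathway, fell in the Ms4a6c knockout (log2 fold change -0.89 ± 0.0908 SE, edgeR adjusted p = 0.00121). Sustentacular cell markers summed to between 5760 and 6053 CPM in wild type, 5321 and 6230 CPM in the cluster knockout and 6979 and 7537 CPM in the Ms4a6c knockout, with 0 of 4 genes passing an adjusted p of 0.05. In the Ms4a6c knockout Cyp2g1, Cyp1a2 and Sult1c1 lay above wild type, at log2 fold changes of 0.32, 0.26 and 0.42. Ermn, the remaining sustentacular marker, lay below it at -0.41 ± 0.10 (SE, edgeR adjusted p = 0.164). The part of the neuron and sustentacular markers in the receptor values was not tested. The other genes between the deletion and the last receptor were looked at as well, with 0 of 17 tested non-receptor genes called in edgeR in any comparison. In the cluster knockout, 3 of the 17 had an unadjusted p under 0.05, a larger share than the 4.93% of all genes. In the Ms4a6c knockout and between the knockouts, 0 and 1 of the 17 did, smaller shares than the 10.5% and 9.38% of all genes. These differences in share were not tested.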

How the data were processed

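RNA from the main olfactory epithelium of 9 mice was sequenced in pairs of reads from a directional poly-A library. Per the labels and the study's methods, the authors aligned reads with STAR 2.6.1 and deposited expected counts per gene from RSEM 1.3.1 (mm10, GENCODE M25), which share reads between similar genes by estimation. No further normalization had been applied. Here the expected counts were rounded, genes with at least 10 counts over the 9 mice were kept, and edgeR 4.0.16 (R 4.3.3) fitted 1 quasi-likelihood model of the 3 genotypes with TMM scaling and Benjamini-Hochberg adjustment over all tested genes. DESeq2 1.42.0 was an alternative. The steps were tested on simulated data.

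Library totals ranged from 13954591 to 21987174 expected counts. Positions came from GENCODE M21 (GRCm38), matched by transcript identifier for 99.6% of genes, and lengths for levels per kilobase from the longest matched transcript. Near-identical transcripts were found with BLAST 2.17.0, and promoter sequences came from RefSeq (GRCm38.p6).

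The receptors and gene lists were chosen with earlier results of these data known. Receptors were named if they had the 5 highest levels per kilobase, were the 5 tested ones nearest to the deletion, had an adjusted p under 0.05, or had the 3 smallest p in a direction in a comparison. Olfr1437, Olfr1438-ps1, Olfr1440, Olfr1443, Olfr1434, Olfr1436 and the receptors most like Olfr1437 were named after their values were seen. Other marker lists, for immature neurons, horizontal basal, ciliated, B, macrophage and ensheathing cells, had 0 genes with an adjusted p under 0.05 in edgeR in any comparison. The litters were not given, and p-values measure the spread between these mice.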

Additional observations from a re-analysis of the deposited data

How the results depend on the processing

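The count of receptors with an adjusted p under 0.05 was 0 in all 3 comparisons and under each of 19 alternatives, with between 1 and 9, 1 and 8, and 5 and 13 receptors at an unadjusted p under 0.05 in the cluster knockout, the Ms4a6c knockout and between them. All 306 alternative values of the 18 named results kept their direction and their side of the threshold, but the summed neighbours were not among them. Summed with its neighbours, Olfr1425 went from 0.42 to -0.0064 in the cluster knockout. Olfr1424 likewise went from -1.31 to 0.10 between the knockouts. In the cluster knockout the median log2 fold change was 0.015 scaled to the other odorant receptors, a scaling that put the median of all genes at 0.12, -0.18 with edgeR's own filter, -0.039 with no filter and -0.17 with a replicate block. Leaving out each mouse gave from -0.16 to -0.012 there, from 0.039 to 0.16 in the Ms4a6c knockout and from -0.28 to -0.17 between the knockouts, where scaling to the other receptors gave -0.075. Without wild-type mouse 2 the cluster knockout median was -0.012. The rho of change against distance was 0.31 in the cluster knockout and 0.092 in the Ms4a6c knockout with edgeR's own filter, 0.12 in the Ms4a6c knockout with the Xist term, and from 0.12 to 0.30 and from 0.12 to 0.25 with each mouse left out. The difference in sum for the Ms4a6c knockout was 48.5 CPM with plain library sizes beside 11.6 CPM. The share differed by values from -0.129 to 0.0877 percentage points in the cluster knockout with each mouse left out. The cause of these shifts was not tested. The distance, Xist and summed-neighbour alternatives were chosen after seeing the data.

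Whether replicate numbers paired the mice could not be told. Deviations from a group mean sum to 0, and the 2 mice with most Bpifb9a carry different numbers. The mean correlation of same-numbered mice was -0.022 for the Ms4a6c knockout against wild type and -0.02 between the knockouts. Deviations of same-numbered mice had correlations of -0.30, -0.22 and -0.13 between the cluster knockout and wild type, and the replicate block left 2, 4 and 8 receptors at an unadjusted p under 0.05 and 0 after adjustment.

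Of the 59 receptors, 31, 32 and 30 in the 3 comparisons had intervals within 2-fold either way, which counts and the spread between mice both limit.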

Other observations

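Olfr235 stood at 12.1, 6.82 and 7.34 CPM in wild type, at 4.71, 4.78 and 11.9 CPM in the cluster knockout and at 11.0, 13.3 and 13.1 CPM in the Ms4a6c knockout. The mice with little Xist were the high ones in wild type and the cluster knockout, whereas all 3 Ms4a6c knockout mice were high. Olfr76, also interleaved with the region, stood at 4.43 ± 0.568 CPM in wild type, 5.37 ± 0.923 CPM in the cluster knockout and 6.12 ± 0.336 CPM in the Ms4a6c knockout (SD, n = 3), and its log2 fold change in the Ms4a6c knockout was 0.47 ± 0.17 (SE, edgeR adjusted p = 0.356).

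Olfr1442 and Olfr1443, which form the third block, summed to 26.7, 27.4 and 24.6 CPM in wild type, 24.1, 19.6 and 21.1 CPM in the cluster knockout and 23.1, 27.1 and 23.1 CPM in the Ms4a6c knockout. The cluster knockout mice lay below the wild-type mice, with a log2 fold change of -0.27 (edgeR unadjusted p = 0.0195, adjusted p = 0.966). The sum was chosen because the transcripts are 96.4% identical over 334 bases.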
